A study of Mus musculus with 15 samples.

Results

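The genes described here are 40 imprinted genes and close neighbours from 15 domains of the mouse genome, of 55471 gene IDs counted in each library. They were chosen by name, as members of imprinted domains other than the Mest, Nnat and distal chromosome 7 domains, and each name matched 1 Ensembl ID in the GENCODE M21 annotation. By common knowledge of mouse tissues, 22 are expressed mainly from the paternal copy, 14 from the maternal copy, 3 from a copy that depends on the tissue, and 1, Herc3, is a biallelic neighbour. For some of the 22 and 14, such as Ube3a in neurons, this holds in certain tissues only. Which copy was expressed in the cells studied here was not measured. Poly(A) RNA was sequenced from E14 embryonic stem cells of the mouse (mESCs) kept on gelatin in 2i/LIF medium, and from embryoid bodies (EBs), aggregates in which such cells differentiate in suspension. Wild-type mESCs were nontreated or received 500 nM dTAG-13 for 72 h. In the knock-in line, NSD1-dTAG, the histone methyltransferase NSD1 carries a degron tag, so that dTAG-13 can direct the tagged protein to ubiquitin-dependent degradation. This line gave nontreated mESCs, nontreated day 6 EBs and day 6 EBs that were in 500 nM dTAG-13 throughout their 6 days. There were 3 libraries in every one of these 5 groups, labelled as biological replicates with nothing more said of how they were grown, so p-values reflect only the spread among these samples. Whether the knock-in line is a single clone is not stated, the NSD1 protein was not measured, and no wild-type EBs or NSD1-dTAG mESCs given the compound were analysed here. The comparisons therefore ask how these genes differ with the compound where no tag is present, between the lines, on EB formation, and with the compound in tagged EBs.

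Imprinted genes are expressed from a single parental copy because DNA methylation laid down in one germ line, at imprinting control regions, survives the erasure that follows fertilization. ZFP57 and its partner TRIM28 bind such regions on the methylated copy at the hexamer TGCCGC and help to keep the mark. Many imprinted genes lie in clusters in which 1 control region acts on several genes, and many are known for roles in growth, the placenta and the nervous system. NSD1 places dimethylation on lysine 36 of histone H3, a mark that the DNA methyltransferase DNMT3A reads. The counts do not separate the parental copies, so every level below is the sum of both.

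The promoters of 6 members named below are shown, and whether these sequences bear on any level was not tested. Plagl1, Zim1 and Ndn were lower in dTAG-13 EBs, Zrsr1 differed between the lines, Peg3 has a promoter window that overlaps that of Usp29, and Meg3 spread widely in EBs. Each run is 300 bases from RefSeq (GRCm38.p6), read 5′ to 3′ on the gene's strand from 250 bases before to 50 bases after the annotated start, with each CpG in capitals.
Plagl1: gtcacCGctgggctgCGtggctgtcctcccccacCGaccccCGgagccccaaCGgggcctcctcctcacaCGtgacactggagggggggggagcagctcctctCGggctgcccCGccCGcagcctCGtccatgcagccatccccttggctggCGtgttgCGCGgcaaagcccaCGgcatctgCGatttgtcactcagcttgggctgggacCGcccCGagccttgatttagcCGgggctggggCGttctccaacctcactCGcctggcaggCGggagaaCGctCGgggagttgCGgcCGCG
Zim1: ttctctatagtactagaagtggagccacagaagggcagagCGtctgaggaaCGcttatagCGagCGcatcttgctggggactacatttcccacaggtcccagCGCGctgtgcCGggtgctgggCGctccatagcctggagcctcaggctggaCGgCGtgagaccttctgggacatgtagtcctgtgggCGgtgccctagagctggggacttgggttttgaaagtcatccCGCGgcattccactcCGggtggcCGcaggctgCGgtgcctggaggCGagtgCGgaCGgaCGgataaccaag
Ndn: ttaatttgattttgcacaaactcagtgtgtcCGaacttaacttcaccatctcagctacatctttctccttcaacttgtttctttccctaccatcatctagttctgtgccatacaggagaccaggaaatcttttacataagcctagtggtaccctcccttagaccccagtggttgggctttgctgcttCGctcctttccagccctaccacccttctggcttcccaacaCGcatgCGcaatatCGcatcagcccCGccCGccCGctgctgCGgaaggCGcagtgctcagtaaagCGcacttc
Zrsr1: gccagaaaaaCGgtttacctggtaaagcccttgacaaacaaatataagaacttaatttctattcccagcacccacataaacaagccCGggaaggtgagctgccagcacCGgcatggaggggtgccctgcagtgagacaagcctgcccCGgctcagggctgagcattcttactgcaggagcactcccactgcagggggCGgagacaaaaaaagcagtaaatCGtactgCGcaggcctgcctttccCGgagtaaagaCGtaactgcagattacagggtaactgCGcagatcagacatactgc
Peg3: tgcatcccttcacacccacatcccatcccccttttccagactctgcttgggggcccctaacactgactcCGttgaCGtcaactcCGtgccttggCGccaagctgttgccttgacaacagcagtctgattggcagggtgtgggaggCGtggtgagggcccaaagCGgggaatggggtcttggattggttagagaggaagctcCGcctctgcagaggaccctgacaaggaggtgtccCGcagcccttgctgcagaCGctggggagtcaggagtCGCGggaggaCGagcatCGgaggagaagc
Meg3: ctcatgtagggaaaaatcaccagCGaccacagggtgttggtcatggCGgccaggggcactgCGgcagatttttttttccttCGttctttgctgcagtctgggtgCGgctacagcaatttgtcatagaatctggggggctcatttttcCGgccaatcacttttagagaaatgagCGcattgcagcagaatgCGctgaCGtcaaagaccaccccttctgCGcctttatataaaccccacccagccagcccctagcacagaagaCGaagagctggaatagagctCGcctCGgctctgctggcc

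The Plagl1 window (chr10:13090582-13090881, plus strand) holds 26 CpGs and lies inside the gene's span in GENCODE M21, which begins farther upstream. The Zim1 window (chr7:6696383-6696682, minus strand) holds 20 and covers the 5′ end of the gene. The Ndn window (chr7:62348027-62348326, plus strand) holds 11 and lies within the longer M21 gene model. The Zrsr1 window (chr11:22971755-22972054, plus strand) holds 10 and sits inside the span of Commd1, which is read from the opposite strand. The Peg3 window (chr7:6730370-6730669, minus strand) holds 13, and 263 of its bases are also in the Usp29 window. The M21 models of these divergent genes are 146 bp apart. The Meg3 window printed above (chr12:109540746-109541045, plus strand) holds 13 CpGs. Another Meg3 window, not printed (chr12:109545148-109545447, plus strand), holds 1 CpG and no TGCCGC. The median over all 32851 RefSeq promoters was 7 CpGs (interquartile range 3 to 20).

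RefSeq promoter windows were matched for 32 of the 40 genes, 44 windows in all. For the 40 genes, windows on chromosome 18, where Impact lies, were left out by rule. TGCCGC, searched on both strands, was present in 9 of the 44 (20.5%) and in 3813 of all 32851 promoters (11.6%). The 9 belong to Commd1, Grb10, Mcts2, Meg3, Nap1l5, Plagl1, Snrpn, Snurf and Zim1, and the Snrpn and Snurf windows are the same bases. In the runs printed above it lies on the opposite strand, so it reads as GCGGCA, from base 161 of Plagl1, base 231 of Zim1 and base 61 of Meg3. The core of the motif bound by YY1, GCCATNTT, searched in the same way, was present in the windows of Mkrn3 and Ube3a, 2 of 44 (4.55%), against 6.05% of all promoters. A match describes these letters and is not a measured binding site.

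Gene counts summed to between 18704591 and 29103958 per library. In each group 1 library stood apart, with the shortest read-weighted exon length of its group (4.99 to 5.50 kb) and the most counts on ribosomal protein genes. These were library 1 of wild-type nontreated mESCs, library 3 of wild-type dTAG-13 mESCs, library 1 of NSD1-dTAG mESCs and library 3 of both EB groups. For each comparison, the number of these genes called is also given without them. Marker genes went with the labels: naive stem cell markers (Klf4, Zfp42, Esrrb, Tfcp2l1 and Nanog) summed to 3001 to 3709 CPM in mESCs and to 339 to 774 CPM in EBs. Markers of extraembryonic endoderm, a cell type in which several imprinted genes are highly expressed, summed to at most 0.789 CPM in mESCs and to 147 to 507 CPM in EBs. The compound acts on the tagged protein, and Nsd1 mRNA was at 182 to 405 CPM in mESCs and 200.4 to 309 CPM in EBs, called in none of the 5 comparisons. In such bulk RNA, fewer cells of a type and less RNA per cell cannot be told apart.

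Levels are CPM, gene counts scaled to a common library size with TMM over all 15 libraries, listed in the order of libraries 1, 2 and 3. Changes were called where edgeR's quasi-likelihood test gave an adjusted p below 0.05, with Benjamini-Hochberg adjustment over every gene tested in that comparison. Reads were assigned by strand, as far as the tables show: of 439 genes whose exons lie wholly inside exons on the other strand, 199 had reads, where a count that ignored strand and dropped ambiguous reads would leave them at 0. Antisense pairs such as Gnas and Nespas are therefore given separately. Snurf lies wholly within exons of Snrpn on the same strand and had 0 counts in all 15 libraries, so it could not be measured on its own. Besides Snurf, 6 genes never reached the count filter: Airn, Slc22a3, Rtl1, Rasgrf1, Peg13 and Kcnk9. Of the 40 genes, 33 were tested in at least 1 comparison. The colour map of every gene in every library shows the steps between mESCs and EBs described below.

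**Figure D1:**
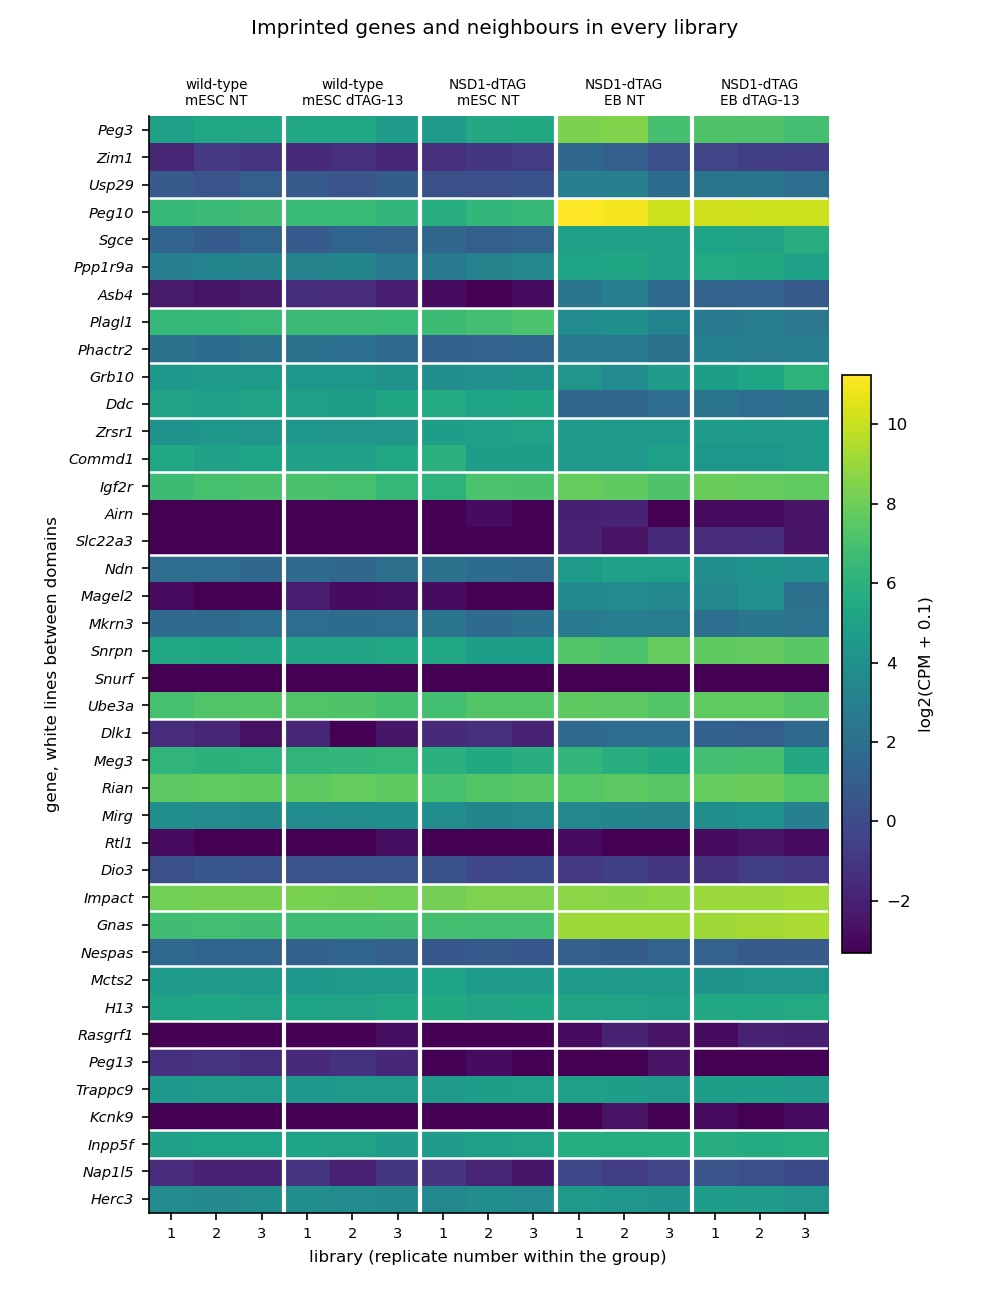
Colour map of the level of each of the 40 genes (rows, grouped by domain) in each of the 15 libraries (columns, grouped and numbered), as log2(CPM + 0.1). Peg3, Peg10, Sgce, Ndn, Magel2 and Gnas are brighter in the 6 EB libraries, Plagl1 and Ddc are brighter in the 9 mESC libraries, and Snurf is at 0 counts throughout.

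In wild-type mESCs, none of the 28 genes tested was called with dTAG-13, and the same held for all 13784 genes tested (0%). The largest differences were in Grb10, which encodes an adaptor that restrains insulin and IGF1 receptor signalling, and in the antisense RNA Nespas. Grb10 read 21.7, 25.5 and 24.4 CPM without and 21.4, 21.8 and 18.1 CPM with the compound. The groups overlapped, and the difference was not called (log2 fold change -0.23, SE 0.1, adjusted p = 1). Nespas had a log2 fold change of -0.22 (SE 0.15). Meg3, a maternally expressed noncoding RNA, was the 1 gene of the 28 with an unadjusted p below 0.05 in edgeR, at a log2 fold change of 0.19, where 229 of all genes had such a p. DESeq2 also called 0 genes. Standard errors of the 28 genes ran from 0.056 to 0.20 on the log2 scale, and without the libraries that stand apart 16 genes (0.115% of those tested) were called, none of them among the 28.

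Between the untreated lines, Zrsr1 was the 1 gene called of 29 tested, where 1.86% of all 13895 genes were called (0.547% higher and 1.32% lower). Zrsr1, an intronless relative of a U2AF-related splicing factor gene that is expressed from the paternal copy, was higher in NSD1-dTAG mESCs. Wild-type mESCs held 17.9, 20.9 and 18.9 CPM of it nontreated and 20.04, 19.3 and 18.9 CPM with dTAG-13. The knock-in mESCs held 27.8, 31.7 and 32.8 CPM, and its EBs 26.0, 22.8 and 22.5 CPM nontreated and 25.9, 26.0 and 25.3 CPM with dTAG-13. All 3 libraries of the knock-in mESCs lay above all 6 wild-type libraries. The difference was 1.59-fold (log2 fold change 0.67, SE 0.11, adjusted p = 0.0381). The call was lost on leaving out any 1 library other than NSD1-dTAG library 1, with adjusted p up to 0.205, and under ERCC scaling (adjusted p = 1), while the log2 fold change stayed between 0.58 and 0.75 over all alternatives. Of its exon bases, 9.17% overlap Commd1 on the other strand, and reads could also be shared with its relative Zrsr2.

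Same-numbered libraries of the lines deviated together, but library 1 stood apart in both, and pairing cannot be told from this. With the replicate number as a block 6 of the 29 genes were called, against 5.65% of all genes (2.1% higher and 3.55% lower). These were Zrsr1 and Plagl1, higher in NSD1-dTAG mESCs, and Nespas, Peg10, Phactr2 and Grb10, lower. Grb10 was at 14.2, 16.7 and 16.8 CPM in the knock-in mESCs, below each wild-type nontreated library (log2 fold change -0.59, adjusted p = 0.0584 without and 0.0121 with the block). Phactr2, which encodes a regulator of protein phosphatase and actin, was at 4.25, 3.39 and 4.02 CPM and 2.22, 2.30 and 2.55 CPM in the wild-type and knock-in lines (adjusted p = 0.0594 and 0.0361). Nespas was at 3.00, 2.48 and 2.45 CPM and 1.53, 1.62 and 1.53 CPM (adjusted p = 0.0574 and 0.0439). In all 3 genes the line groups did not overlap, though the genes were picked by the test on these same values. The share of all genes without overlap between the lines was not counted. Plagl1 read 0.44 (adjusted p = 0.166 and 0.0316) and Peg10 -0.44 (0.348 and 0.0299) on the log2 scale.

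Without the libraries that stand apart, 13 of 29 genes were called between the lines, against 22.7% of all genes. Leaving out NSD1-dTAG library 1 alone gave 8 calls, where 8.89% of all genes were called. Leaving out any other single library gave 0, where at most 0.0843% of all genes were called. Commd1, whose protein takes part in copper handling, read 63.8, 27.7 and 28.9 CPM in NSD1-dTAG mESCs against 42.2, 32.6 and 34.7 CPM in wild-type nontreated mESCs, so NSD1-dTAG library 1 was the highest and its fellows the lowest. Its log2 fold change was 0.12 with all libraries and -0.25 (adjusted p = 0.003) without those that stand apart. Peg13, a noncoding RNA from an intron of Trappc9, was below the filter. Wild-type mESCs had 9, 9 and 5 reads of it nontreated and 6, 8 and 5 with dTAG-13, against 0, 1 and 0 in NSD1-dTAG mESCs. Over the group the nontreated wild-type level was 24.6 times that of the knock-in line, with a 95% counting interval of 4.0 to 1015. Peg13 had 2 reads in the 3 nontreated EB libraries and 0 in the dTAG-13 EB libraries.

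Between nontreated EBs and nontreated NSD1-dTAG mESCs, 23 of the 33 genes tested were called, 19 higher and 4 lower in EBs, where 59.5% of all 15193 genes were called (33.1% higher and 26.3% lower). The median log2 fold change of the 33 was 0.77, and that of all genes tested was 0.016. Asb4, Magel2, Dlk1 and Nap1l5 passed the filter only through their EB counts, and all of these were higher. Their higher level was thus part of how they came to be tested, also for their p-values below. The median of the 33 includes them. Of the other 29, 15 were higher, 4 lower and 10 not called. Without the libraries that stand apart 25 of 33 were called, against 73.2% of all genes, and Dio3 was the 1 gene of the 23 whose call was lost. The Peg3, Peg10 and Snrpn domains supplied 11 of the genes that rose, Asb4 and Magel2 included, while Plagl1 and Ddc fell most. Beside these changes, 5 of 5 naive stem cell markers fell, and 5 of 5 markers of primitive streak and mesoderm and 6 of 6 of extraembryonic endoderm rose. Fibroblast markers rose for 3 of 3 tested, endothelial and blood markers rose for 3 and fell for 1 of 4, trophoblast markers rose for 2 and fell for 1 of 3, and neural markers rose for 2 and fell for 1 of 4. Between the untreated lines, 0 extraembryonic endoderm, 1 fibroblast and 3 streak and mesoderm markers passed the filter. So did 2 endothelial and blood, 2 trophoblast and 3 neural markers. Markers beyond these passed it through their EB counts, so a higher level was part of how they came to be tested. The part of such cell types in the differences between EBs and mESCs was not tested.

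The genes of the Peg3 domain on proximal chromosome 7 all rose. Peg3, a zinc finger transcription factor expressed from the paternal copy, read 31.3, 42.7 and 42.2 CPM in wild-type nontreated, 41.8, 40.4 and 26.0 in wild-type dTAG-13 and 26.2, 44.4 and 45.4 in NSD1-dTAG mESCs. EBs had 326, 349 and 124 CPM without and 152, 141 and 116 CPM with dTAG-13. Every EB library lay above every mESC library, and nontreated EB library 3 was far below its fellows. The rise was 6.98-fold (log2 fold change 2.80, SE 0.41, adjusted p = 0.000472). Usp29, the divergent neighbour that encodes a deubiquitinase, rose 5.92-fold (log2 fold change 2.57, SE 0.35, adjusted p = 0.000349). It went from 1.11, 1.06 and 1.15 CPM to 7.93, 7.99 and 3.46 CPM and read 4.99, 5.02 and 3.75 CPM in dTAG-13 EBs. Wild-type mESCs had 1.72, 1.34 and 2.01 CPM nontreated and 1.64, 1.35 and 1.87 CPM with the compound, so mESC and EB values did not overlap. Zim1, a maternally expressed zinc finger gene, was scarce: 0.183, 0.434 and 0.381 CPM and 0.229, 0.296 and 0.217 CPM in wild-type mESCs without and with dTAG-13, and 0.306, 0.415 and 0.510 CPM in NSD1-dTAG mESCs. It reached 2.96, 2.12 and 1.07 CPM in nontreated EBs and 0.733, 0.562 and 0.514 CPM in dTAG-13 EBs. The nontreated EBs all lay above the mESCs (log2 fold change 2.34, SE 0.44, adjusted p = 0.00195), while dTAG-13 EBs were only slightly above them.

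In the Peg10 domain on chromosome 6 all 4 genes rose. Peg10, a gene derived from a retrotransposon and needed for the placenta, read 83.5, 97.4 and 107 CPM in wild-type nontreated, 93.4, 93.6 and 78.2 in wild-type dTAG-13 and 53.4, 78.1 and 81.6 in NSD1-dTAG mESCs. EBs had 2404, 2118 and 1116 CPM without and 1161, 1108 and 1095 CPM with dTAG-13. That is a 26.8-fold rise (log2 fold change 4.75, SE 0.34, adjusted p = 8.97e-06), with no overlap, and per length Peg10 was the most abundant of the 40 genes in EBs. Sgce, which encodes epsilon-sarcoglycan and starts 98 bp from Peg10 on the other strand, rose 13.5-fold (log2 fold change 3.75, SE 0.15, adjusted p = 8.26e-07). Its values were 2.56, 1.81 and 2.45 CPM, 1.68, 2.45 and 2.43 CPM and 2.83, 2.04 and 2.38 CPM in the mESC groups, in the order given for Peg10. In EBs it read 32.2, 32.4 and 31.7 CPM without and 34.6, 36.7 and 53.1 CPM with dTAG-13. The nontreated EB libraries of Sgce were close to each other, unlike those of Peg10, in which library 3 was low.

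Ppp1r9a and Asb4 are maternally expressed in the same domain. Ppp1r9a, which encodes the actin-binding scaffold neurabin, read 7.43, 9.54 and 9.02 CPM, 9.05, 9.63 and 5.81 CPM and 6.40, 9.09 and 11.3 CPM in the mESC groups, then 34.4, 37.4 and 29.6 CPM and 48.4, 45.6 and 31.7 CPM in EBs without and with dTAG-13. It was higher in each EB library than in any mESC library (log2 fold change 1.94, SE 0.22, adjusted p = 0.000109). Asb4, a substrate adaptor of a ubiquitin ligase, was nearly silent in mESCs, with 3, 2 and 2 reads in wild-type nontreated, 7, 6 and 3 in wild-type dTAG-13 and 1, 0 and 1 in NSD1-dTAG libraries. EBs had 5.11, 7.32 and 3.03 CPM without and 2.35, 2.32 and 1.65 CPM with dTAG-13, from 85 to 218 and 45 to 66 reads. Nontreated EBs were 198-fold above NSD1-dTAG mESCs, with a 95% counting interval of 54.4 to 1638 and an adjusted p of 2.50e-05.

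In the Snrpn domain 4 of 5 genes tested rose. Ndn, which encodes the growth-restraining protein necdin of postmitotic neurons, read 3.51, 3.55 and 2.83 CPM, 3.36, 2.75 and 3.99 CPM and 4.21, 3.40 and 3.19 CPM in wild-type nontreated, wild-type dTAG-13 and NSD1-dTAG mESCs. It reached 24.1, 31.7 and 29.1 CPM in nontreated EBs and 14.2, 17.8 and 16.1 CPM in dTAG-13 EBs. All EB values were above all mESC values, and the rise was 7.97-fold (log2 fold change 2.99, SE 0.17, adjusted p = 3.08e-06). Magel2, a related gene whose protein regulates a ubiquitin ligase in endosomal transport, had 1, 5 and 1 reads in total in the 3 mESC groups. Its EB levels were 12, 12.7 and 11.0 CPM without and 11.5, 16.6 and 4.12 CPM with dTAG-13. The nontreated EBs exceeded NSD1-dTAG mESCs 905-fold, with a 95% counting interval of 162 to 35767 and an adjusted p of 9.20e-07.

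Snrpn, which encodes a core splicing protein abundant in brain, rose 5.31-fold (log2 fold change 2.41, SE 0.22, adjusted p = 3.99e-05). It went from 42.2, 28.1 and 27.9 CPM in NSD1-dTAG mESCs to 156, 139 and 219 CPM in nontreated EBs. Wild-type mESCs had 43.0, 39.0 and 36.4 CPM and 36.7, 36.3 and 41.4 CPM without and with dTAG-13, and dTAG-13 EBs had 193, 211 and 184 CPM. Its groups of mESCs and EBs did not overlap, and 27.3% of its exon bases are shared with Snurf and Gm38393 on the same strand. Mkrn3, which encodes a makorin RING finger protein known for delaying puberty, rose 1.71-fold (log2 fold change 0.77, SE 0.17, adjusted p = 0.00527). Its values were 3.26, 3.19 and 3.81 CPM, 3.51, 3.42 and 3.73 CPM and 4.83, 3.36 and 4.34 CPM in the mESC groups, 6.68, 7.36 and 7.06 CPM in nontreated EBs and 4.0, 5.16 and 4.63 CPM in dTAG-13 EBs. Nontreated EBs lay above all mESC libraries, whereas dTAG-13 EBs overlapped NSD1-dTAG mESCs. Ube3a, a ubiquitin ligase gene that is maternally expressed in neurons, was not called (log2 fold change 0.33, SE 0.17, adjusted p = 0.119), with 113 to 162 CPM in NSD1-dTAG mESCs and 159 to 195 CPM in nontreated EBs. Without the libraries that stand apart its log2 fold change was 0.25 (adjusted p = 0.00243).

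Plagl1 and Ddc went the other way. Plagl1, a zinc finger transcription factor that restrains growth, read 83.3, 85.0 and 92.8 CPM, 97.8, 97.6 and 93.9 CPM and 100.4, 119 and 136 CPM in the mESC groups. EBs had 12.7, 15.5 and 9.48 CPM without and 5.83, 6.98 and 5.26 CPM with dTAG-13. All 9 mESC libraries were above all 6 EB libraries, and the level in nontreated EBs was 9.27-fold lower (log2 fold change -3.21, SE 0.21, adjusted p = 5.84e-06). Its neighbour Phactr2 rose 2.40-fold (log2 fold change 1.26, SE 0.20, adjusted p = 0.000873). Phactr2 had 6.57, 5.71 and 4.46 CPM in nontreated and 8.21, 6.98 and 7.35 CPM in dTAG-13 EBs, above each NSD1-dTAG mESC library, and 4.20, 3.93 and 3.21 CPM in wild-type dTAG-13 mESCs. Ddc, which encodes the decarboxylase that makes dopamine and serotonin, had 33.5, 30.7 and 33.1 CPM, 31.0, 28.7 and 37.5 CPM and 48.8, 34.7 and 38.3 CPM in the mESC groups. It read 2.96, 2.75 and 3.6 CPM in nontreated and 4.66, 3.72 and 4.30 CPM in dTAG-13 EBs. That is a 12.9-fold lower level in nontreated EBs (log2 fold change -3.69, SE 0.18, adjusted p = 1.64e-06), with no overlap. Grb10, next to Ddc, was not called (log2 fold change 0.31, SE 0.24, adjusted p = 0.287), and its nontreated EB values spanned those of the mESCs.

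The Dlk1-Dio3 domain on chromosome 12 was divided. Dlk1, a Notch-related ligand expressed from the paternal copy, had 0.256, 0.197 and 0.0544 CPM and 0.191, 0 and 0.0868 CPM in wild-type mESCs without and with dTAG-13 and 0.230, 0.302 and 0.170 CPM in NSD1-dTAG mESCs. EBs had 3.18, 3.69 and 3.6 CPM without and 2.16, 2.04 and 3.09 CPM with dTAG-13, all above the mESC values. The rise was 14.7-fold (log2 fold change 3.88, SE 0.27, adjusted p = 8.50e-06), from 18 reads over the 3 NSD1-dTAG libraries. Dio3, which encodes a deiodinase that inactivates thyroid hormone, was lower in EBs (log2 fold change -0.92, SE 0.29, adjusted p = 0.0263). Its levels were 1.06, 1.42 and 1.25 CPM, 1.22, 1.27 and 1.3 CPM and 1.15, 0.755 and 0.851 CPM in the mESC groups and 0.464, 0.571 and 0.392 CPM and 0.330, 0.562 and 0.441 CPM in EBs without and with dTAG-13. These rest on 9 to 36 reads a library, and the call was lost in 7 of 14 alternatives. The maternally expressed noncoding RNAs Meg3, Rian and Mirg, which carry small RNAs in their introns and exons, were not called, with log2 fold changes of 0.16, 0.22 and -0.21. Meg3 was called without the libraries that stand apart (log2 fold change 0.41, adjusted p = 0.0452). Rian, at 129 to 223 CPM in mESCs and 166 to 188 CPM in nontreated EBs, was the most abundant of the domain per length. Rtl1, a retrotransposon-derived gene read against these RNAs, had at most 2 reads in any library.

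Gnas, which encodes the alpha subunit of the stimulatory G protein, rose 4.75-fold with little spread (log2 fold change 2.25, SE 0.098, adjusted p = 1.07e-06). It had 109, 115 and 108 CPM, 106, 107 and 110.5 CPM and 121, 117 and 117 CPM in the mESC groups. The EB values, 547, 556 and 559 CPM without and 578, 628 and 678 CPM with dTAG-13, were all higher. The antisense RNA Nespas was not called (log2 fold change 0.44, SE 0.20, adjusted p = 0.0968) and lay at 1.53 to 1.62 CPM in NSD1-dTAG mESCs and at 1.88 to 2.35 CPM in nontreated EBs. Igf2r, the receptor that clears IGF2, had 102, 130.1 and 130.1 CPM, 132, 128 and 84.0 CPM and 67.5, 139 and 131 CPM in the mESC groups. It read 220.2, 198 and 151 CPM in nontreated and 242, 223 and 202 CPM in dTAG-13 EBs, above all mESC libraries (log2 fold change 0.77, SE 0.27, adjusted p = 0.0403). The call was lost without nontreated EB library 1 or 2 (adjusted p up to 0.131) and with the replicate block (adjusted p = 0.0531). Airn, the antisense RNA that silences Igf2r on the paternal copy in most tissues, had 9 reads over the nontreated EBs and 4 over the dTAG-13 EBs, against 1 read over all 9 mESC libraries. The ratio of nontreated EBs to NSD1-dTAG mESCs was 7.98, with a 95% counting interval of 1.11 to 349.9. Slc22a3, an organic cation transporter of the same domain, had 0 reads in all mESCs and 5, 2 and 7 in nontreated EBs, at least 4.14-fold higher against a floor of 3 counts over the group.

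Among the single genes and small domains, Inpp5f, a phosphoinositide phosphatase gene, rose 1.76-fold (log2 fold change 0.81, SE 0.13, adjusted p = 0.000745). It read 31.4, 34.9 and 34.1 CPM, 34.7, 33.4 and 26.3 CPM and 25.6, 30.03 and 33.3 CPM in the mESC groups, 51.4, 51.7 and 51 CPM in nontreated and 53.0, 49.5 and 51.3 CPM in dTAG-13 EBs, without overlap. Herc3, a ubiquitin ligase gene whose intron holds Nap1l5, rose 1.66-fold (log2 fold change 0.73, SE 0.17, adjusted p = 0.00551). Its mESC values were 13, 11.5 and 14.3 CPM, 14.2, 12.7 and 12.6 CPM and 10.8, 13.8 and 12.6 CPM, below its EB values of 23.7, 20.2 and 17.1 CPM nontreated and 27.2, 26.5 and 19.2 CPM treated. Nap1l5, an intronless gene of the nucleosome assembly protein family, rose from 0.383, 0.189 and 0.0851 CPM to 0.750, 0.537 and 0.713 CPM and read 1.36, 1.05 and 0.882 CPM in dTAG-13 EBs (log2 fold change 1.58, SE 0.45, adjusted p = 0.0154). Wild-type mESCs had 0.256, 0.158 and 0.163 CPM and 0.382, 0.169 and 0.391 CPM of Nap1l5 without and with dTAG-13, and the call was lost on leaving out NSD1-dTAG library 2 or 3 or nontreated EB library 1. Impact, an inhibitor of the stress kinase GCN2, was 1.3-fold higher in nontreated EBs (log2 fold change 0.38, SE 0.11, adjusted p = 0.019), a call lost in 7 of 14 alternatives. It had 282, 309 and 303 CPM, 311, 309 and 286 CPM and 289, 341 and 337 CPM in the mESC groups, all below 412, 401 and 427 CPM in nontreated and 537, 526 and 584 CPM in dTAG-13 EBs.

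Zrsr1 was 1.28-fold lower in nontreated EBs than in NSD1-dTAG mESCs (log2 fold change -0.35, SE 0.13, adjusted p = 0.04), without overlap, and the call was lost in 6 of 14 alternatives. Commd1, Mcts2, H13 and Trappc9 were not called, with log2 fold changes of -0.66, -0.23, -0.26 and 0.052. Commd1, at 27.7 to 63.8 CPM in NSD1-dTAG mESCs and 22.2 to 30.4 CPM in nontreated EBs, was called without the libraries that stand apart (log2 fold change -0.34, adjusted p = 0.00462). Mcts2, an intronless copy of the translation factor gene Mcts1 inside H13, read 21.8 to 34.7 CPM in mESCs and 23.3 to 24.6 CPM in nontreated EBs, and reads could be shared with its parent gene. H13, a signal peptide peptidase gene, read 33.7 to 45.8 CPM and 29.8 to 35.9 CPM, and Trappc9, a gene of vesicle tethering, 21.2 to 29.6 CPM and 22.4 to 32.2 CPM. Rasgrf1, a Ras exchange factor gene of brain, had 1 read over all 9 mESC libraries and 8 over the nontreated EBs, at least 2.37-fold higher than in NSD1-dTAG mESCs. Kcnk9, a potassium channel gene, had at most 2 reads in any library. The plot of differences between EBs and mESCs shows the called genes on both sides of 0.

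**Figure D2:**
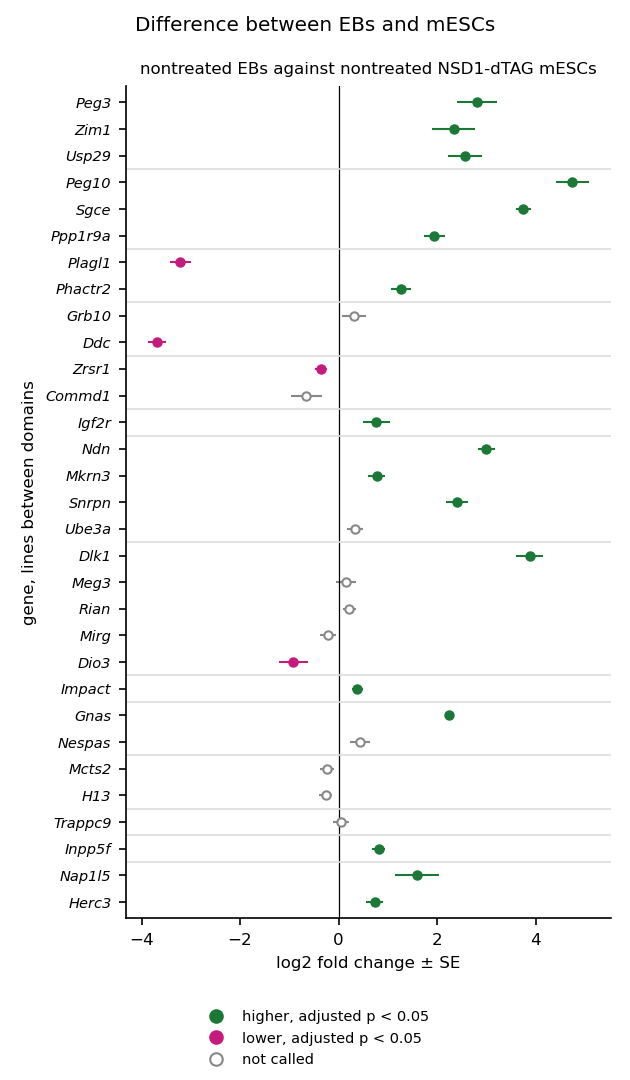
Fitted log2 fold change (x axis, bars are ± SE) of nontreated EBs against nontreated NSD1-dTAG mESCs for 31 of the 33 genes tested, grouped by domain (y axis). Asb4 and Magel2 are not drawn because the mESC group held only 2 reads and 1 read of them, and their counted ratios are in the text. Plagl1 (-3.21) and Ddc (-3.69) lie far to the left, and Peg10 (4.75) farthest to the right.

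With dTAG-13 in EBs, 4 of the 33 genes tested were called, 3 lower and 1 higher, where 6.76% of all 15236 genes were called (3.98% higher and 2.78% lower). Zim1, Plagl1 and Ndn were lower and Impact was higher in dTAG-13 EBs. The values per library, given above with the EB levels, did not overlap between the EB groups for any of the 4. These genes were picked by the test on the same values, and the share of all genes without overlap was not counted. Zim1 was 3.39-fold lower (log2 fold change -1.76, SE 0.39, adjusted p = 0.0374), from 30 to 83 reads in nontreated and 14 to 20 reads in dTAG-13 libraries. Plagl1 was 2.09-fold lower (log2 fold change -1.06, SE 0.20, adjusted p = 0.0225), with means of 12.6 ± 3.01 and 6.02 ± 0.881 CPM (SD, n = 3 each). Ndn was 1.77-fold lower (log2 fold change -0.83, SE 0.14, adjusted p = 0.0164), with means of 28.3 ± 3.89 and 16.0 ± 1.81 CPM. Impact was 1.32-fold higher (log2 fold change 0.41, SE 0.088, adjusted p = 0.0348), with means of 413 ± 13.1 and 549 ± 31.0 CPM. Plagl1 and Ndn thus moved opposite ways on EB formation and the same way with dTAG-13. The EB formation and EB dTAG-13 comparisons share the nontreated EB libraries, as the line and EB formation comparisons share the NSD1-dTAG mESCs and the first pair the wild-type nontreated mESCs.

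**Figure D3:**
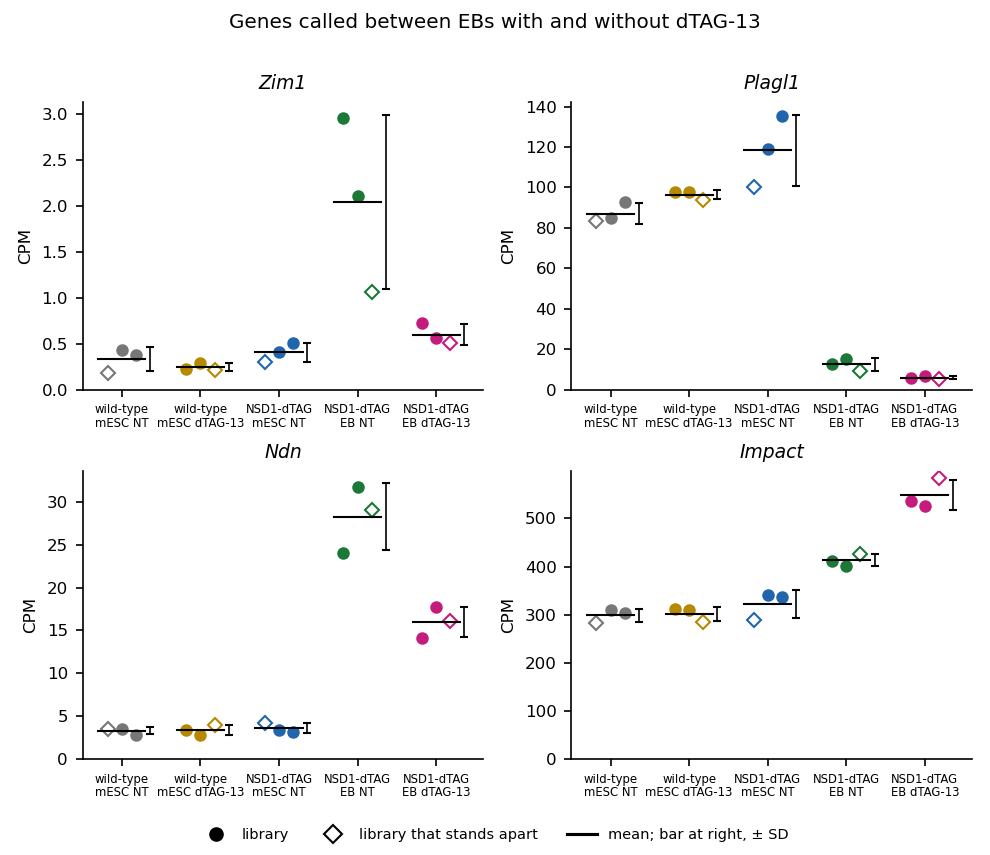
Level in CPM (y axes, from 0) of the 4 genes called between EBs, in each library of the 5 groups (x axis). Points are libraries, open diamonds the library of each group that stands apart, lines the means and bars the SD. For each gene the 3 dTAG-13 EB libraries lie wholly below (Zim1, Plagl1 and Ndn) or above (Impact) the 3 nontreated EB libraries.

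No call among these 4 held on leaving out each library in turn. Zim1 was called in 1, Plagl1 in 3, Ndn in 4 and Impact in 2 of 6 such fits, with adjusted p up to 0.179, while none changed direction. Over all genes these fits called 182 to 1293. The number of the 33 genes called was 1 without nontreated EB library 1 (1.94% of all genes), 0 without library 2 (1.17%) and 8 without library 3 (8.27%). It was 0 without dTAG-13 EB library 1 (1.18%), 2 without library 2 (2.53%) and 7 without library 3 (7.34%). Same-numbered EB libraries deviated together, but library 3 stood apart in both groups, and pairing cannot be told from this. With the replicate number as a block 8 genes were called, against 12% of all genes (6.87% higher and 5.17% lower). The block added Asb4 (adjusted p = 0.0171), Mkrn3 (0.035) and Mcts2 (0.045), lower, and Grb10 (0.0171), higher. Asb4 was at -1.29 on the log2 scale without the block (adjusted p = 0.053). Mkrn3 was at -0.62 (adjusted p = 0.0527), with its 3 dTAG-13 libraries below all 3 nontreated ones. Mcts2 was at -0.35 (adjusted p = 0.0702), from 23.9, 23.3 and 24.6 CPM to 18.0, 19.1 and 19.4 CPM. DESeq2, without the block, also called Asb4 (adjusted p = 0.00243), Mkrn3 (0.0163) and Mcts2 (0.0425). The edgeR fit of all 15 libraries called Asb4 (adjusted p = 0.00748), Mkrn3 (0.0124) and Grb10 (0.0109). On leaving out single libraries, only Asb4 of the genes added by the block was called, without nontreated EB library 3 (edgeR, adjusted p = 0.012).

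Several genes had 1 EB library far from its fellows. Peg3 had a log2 fold change of -0.96 (SE 0.33, adjusted p = 0.136), and nontreated library 3, at 124 CPM, lay among the dTAG-13 libraries. Without that library it was -1.31 (adjusted p = 0.00355). Peg10 had a log2 fold change of -0.75 (adjusted p = 0.116) and -1.01 (adjusted p = 0.00355) without the same library. With all libraries kept, Peg10 was called by DESeq2 (adjusted p = 0.0178), without the count filter (edgeR, adjusted p = 0.0176) and in edgeR's fit of all 15 libraries (adjusted p = 0.0394). Peg3 was called without the count filter (edgeR, adjusted p = 0.0186). Usp29 was at -0.50 (adjusted p = 0.415) with all libraries and at -0.80 (adjusted p = 0.0407) without nontreated EB library 3. In all these genes nontreated libraries 1 and 2 were the 2 highest values of the 6 EB libraries. Grb10 read 19.2, 13 and 26.4 CPM in nontreated and 28.2, 37.0 and 68.0 CPM in dTAG-13 EBs (log2 fold change 1.18, SE 0.35, adjusted p = 0.0927), so dTAG-13 library 3 was the highest and the groups did not overlap.

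In the noncoding RNAs of the Dlk1-Dio3 domain, dTAG-13 library 3 lay apart from its fellows. Meg3 read 77.9, 56.4 and 46.1 CPM in nontreated and 118, 122 and 44.3 CPM in dTAG-13 EBs, so dTAG-13 libraries 1 and 2 were the highest and library 3 the lowest of the 6. Its log2 fold change was 0.66 (adjusted p = 0.346) with all libraries and 1.00 (adjusted p = 0.0257) without dTAG-13 library 3. Mirg, at 11.1, 9.84 and 8.98 CPM and 15.2, 17.2 and 7.94 CPM, was highest and lowest in the same libraries. Without dTAG-13 library 3 its value was 0.70 (adjusted p = 0.0274), and that of Rian was 0.40 (adjusted p = 0.04). Magel2, which read 11.5, 16.6 and 4.12 CPM in dTAG-13 EBs, was also lowest in library 3 (log2 fold change -0.14, SE 0.40, adjusted p = 0.885). Without the libraries that stand apart, which leaves 2 in each EB group, 18 of the 33 genes were called, 8 higher and 10 lower, against 20.9% of all genes. The 4 genes called with all libraries were among them. Peg3 was then at -1.20 (adjusted p = 0.000213) and Dlk1 at -0.71 (adjusted p = 0.0394). Snrpn was at 0.45 (adjusted p = 0.00536), H13 at 0.28 (adjusted p = 0.0394) and Ppp1r9a at 0.39 (adjusted p = 0.0113).

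**Figure D4:**
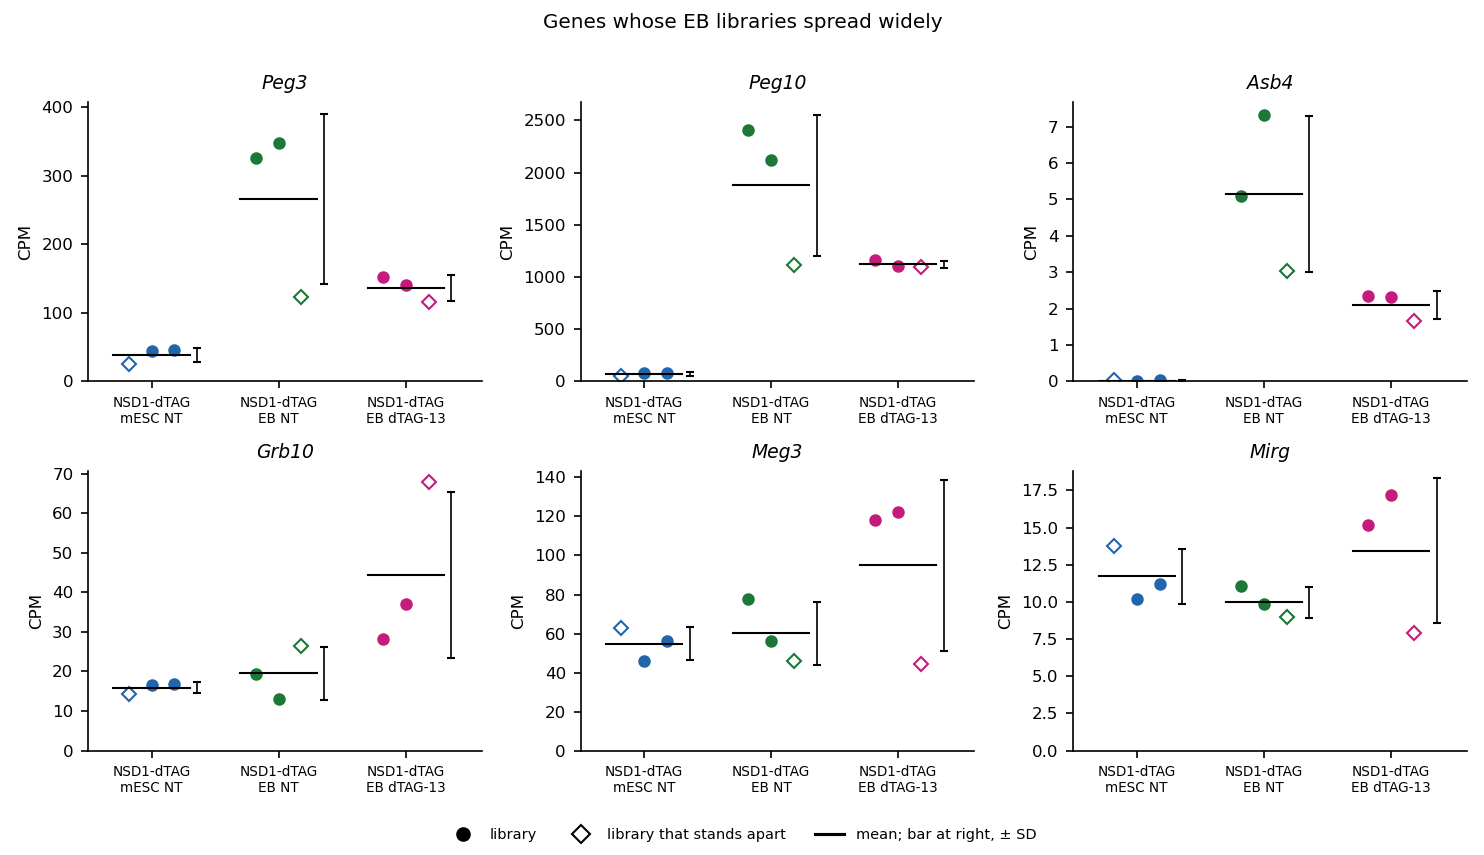
Level in CPM (y axes, from 0) of 6 genes in NSD1-dTAG mESCs and in EBs without and with dTAG-13 (x axis), with points, diamonds, lines and bars as in the plot of the 4 called genes. Nontreated EB library 3 is the low point for Peg3, Peg10 and Asb4, and dTAG-13 EB library 3 is high for Grb10 and low for Meg3 and Mirg.

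The remaining 14 genes tested were not called with dTAG-13 in EBs, with log2 fold changes from -0.17 (Commd1) to 0.71 (Nap1l5). Nap1l5 had an adjusted p of 0.183 on 16 to 37 reads a library. Gnas (0.18, SE 0.093), Inpp5f (-0.0063, SE 0.079) and Igf2r (0.23, SE 0.14) were among them. Over all 33 genes 17 log2 fold changes were above 0 and 16 below, with a median of 0.089, and the median of all genes tested was -0.0056. Rtl1, Rasgrf1, Airn, Slc22a3, Kcnk9 and Peg13 had at most 8 reads in any EB library, and no difference could be detected at this depth.

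Marker genes of cell types moved alongside these EB differences. Naive stem cell markers summed to 607 to 774 CPM in nontreated and 339 to 436 CPM in dTAG-13 EBs, and 4 of 5 fell. Markers of primitive streak and mesoderm (T, Mesp1, Eomes, Mixl1 and Tbx6) summed to 279 to 705 CPM and 27.1 to 111 CPM, and 3 of 5 fell. Extraembryonic endoderm markers (Afp, Ttr, Apoa1, Dab2, Sox17 and Cubn) summed to 237 to 406 CPM and 147 to 507 CPM, highest in library 3 of both groups, and 0 of 6 was called. With 2 libraries a group, leaving out those that stand apart, 4 of these 6 fell. Trophoblast markers summed to 4.56 to 20.8 CPM and 3.05 to 5.95 CPM, with Prl3d1 at 0 in both groups, and 2 of 3 tested fell with all libraries and 3 of 3 without those that stand apart. Neural markers summed to 36.0 to 44.4 CPM and 31.9 to 41.3 CPM, endothelial and blood markers to 39.0 to 75.04 CPM and 37.8 to 53.7 CPM, with Hbb-bh1 at 0, and fibroblast markers to 11.8 to 20.5 CPM and 11.9 to 18.7 CPM. Of the 4 tested in each, 1 neural and 1 endothelial or blood marker fell, and 0 of 3 fibroblast markers was called. Leaving out the same libraries, 5 of 5 naive and 4 of 5 streak markers fell, as did 1 of 4 neural and 2 of 4 endothelial or blood markers, and 1 of 3 fibroblast markers rose and 1 fell. The part of these cell types in the EB differences was not tested.

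**Figure D5:**
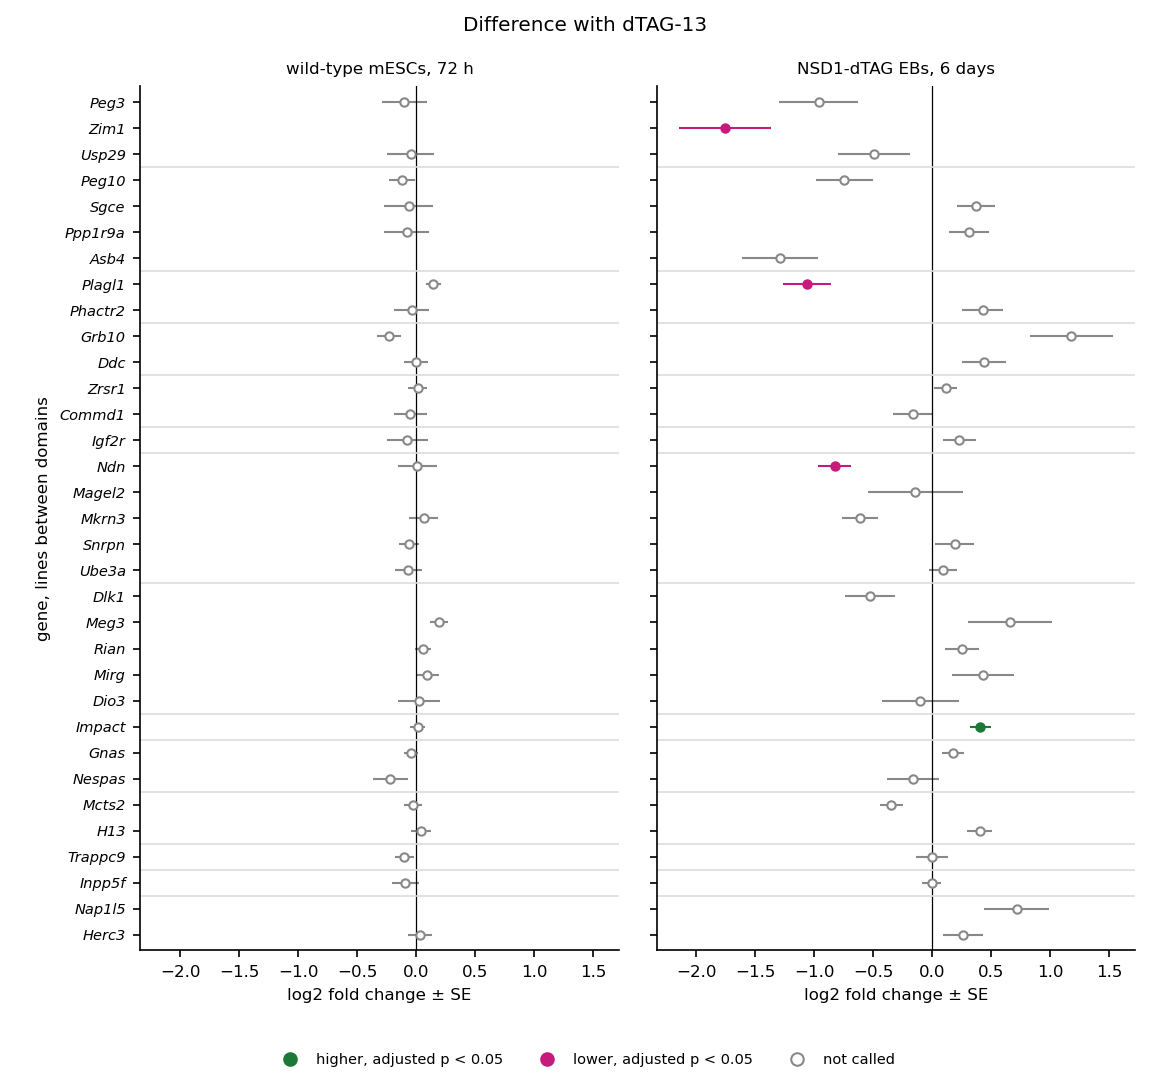
Fitted log2 fold change (x axis, bars are ± SE, same scale in both panels) with dTAG-13 in wild-type mESCs after 72 h (left, 28 genes tested) and in NSD1-dTAG EBs after 6 days (right, 33 genes tested), by gene and domain (y axis). All wild-type values lie between -0.23 and 0.19, and EB values between -1.76 and 1.18.

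To ask whether dTAG-13 acted differently on these genes in tagged EBs and in untagged mESCs, the difference between both effects was tested in the 12 libraries concerned. Of 33 genes, 1 was called, Plagl1, where 2.88% of all 15855 genes were called (1.6% with a higher and 1.27% with a lower value in EBs). Plagl1 differed by 0.15 in wild-type mESCs and by -1.06 in EBs on the log2 scale. The difference of these effects was -1.22 (SE 0.20, adjusted p = 0.00711), and it stayed called in all 20 alternatives, with adjusted p at most 0.0246. Grb10 had a difference of 1.40 (SE 0.41, adjusted p = 0.0967, and 0.0138 with the replicate block). Ndn stood at -0.85 (adjusted p = 0.0691) and Impact at 0.38 (adjusted p = 0.0723). Without the libraries that stand apart 11 genes were called, against 11.9% of all genes, and without nontreated EB library 3 alone 6 were, against 4.70% of all genes. Cell state, line, tag and duration all differ between these arms and cannot be told apart.

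Levels were compared between genes only per length, as reads per kilobase of exon, scaled as CPM (RPKM). In NSD1-dTAG mESCs Impact (62.9 ± 5.61 RPKM, SD, n = 3) was above Mcts2 (31.3 ± 5.86 RPKM), and Mcts2 above Snrpn (15.2 ± 3.80 RPKM). Snrpn and Plagl1 (15.1 ± 2.25 RPKM) overlapped, and each gene further down to H13 overlapped the one above it. In nontreated EBs Peg10 came first (282 ± 101 RPKM), then Impact (80.6 ± 2.55 RPKM), which overlapped Snrpn (79.3 ± 19.4 RPKM). Gnas (49.5 ± 0.596 RPKM) and Mcts2 (26.2 ± 0.686 RPKM) followed without overlap. Plagl1, at rank 4 in NSD1-dTAG mESCs, was at 1.61 ± 0.384 RPKM in nontreated EBs.

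Factors that set, keep or erase imprints were measured beside the members as a list of 28 genes. Between nontreated EBs and NSD1-dTAG mESCs 22 of the 28 were called, 12 higher and 10 lower, against 59.5% of all genes. Dnmt3a and Dnmt3b, the de novo DNA methyltransferases, rose by 3.6 and 2.84 on the log2 scale, and their cofactor Dnmt3l by 1.44. Zfp57, whose protein binds the hexamer above, fell by 3.07 on the log2 scale (adjusted p = 1.46e-05). With dTAG-13 in EBs 1 of 28 was called, against 6.76% of all genes. This was Dnmt3l, which read 141, 143 and 139 CPM without and 90.5, 75.1 and 110.3 CPM with the compound (log2 fold change -0.62, SE 0.13, adjusted p = 0.034). The groups did not overlap, and with the replicate block 6 of the 28 were called, 2 higher and 4 lower, against 12% of all genes. Leaving out the libraries that stand apart, 12 of the 28 were called, 7 higher and 5 lower, against 20.9%. Zfp57 was at -0.57 (adjusted p = 0.229, and 0.02 with the block).

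The imprinted genes of the Mest, Nnat and distal chromosome 7 domains formed a list of 19, of which 16 were tested between the EB groups. With dTAG-13 2 were called, against 6.76% of all genes, H19 lower (-1.83, adjusted p = 0.00224) and Cdkn1c higher (0.42, adjusted p = 0.049965). H19, a maternally expressed growth-restraining noncoding RNA, read 10.5, 10.2 and 9.09 CPM in nontreated and 2.71, 2.56 and 3.12 CPM in dTAG-13 EBs. The list had 4 of 16 called without the libraries that stand apart, against 20.9%. On EB formation 14 of 16 were called, 11 higher and 3 lower, against 59.5% of all genes, and Cdkn1c (2.77), Osbpl5 (5.16), H19 and Slc22a18 (-2.17) had the smallest p. H19 had 0 reads in NSD1-dTAG mESCs, so it passed the filter through its EB counts. Between the untreated lines 12 of the list passed the filter, so some others of the 16 also passed through EB counts. For such genes a higher level was part of how they came to be tested. Both lists were drawn up with earlier results of these data known, and their counts are descriptions.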

How the data were processed

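Poly(A) RNA of 15 libraries in 5 groups of 3 was analysed. Per the labels' protocols, RNA was extracted with RNeasy, ERCC Mix 1 was added, and NEBNext Ultra II Directional libraries were made, which keep strand. The files, 1 per library, hold raw counts of reads for each gene as deposited by the authors, with no normalization. Named in the submitters' processing notes are DESeq2 1.30.0, bcl2fastq 2.20.0.422, STAR (version not given) and the builds mm10 and GRCm38.p6. How reads were counted, with which strand setting and annotation, is not given in the sources used here. In each table were 55471 gene IDs and 92 ERCC controls, which stayed out of library sizes and tests. Without version numbers, 55230 IDs matched GENCODE M21 (GRCm38), and 241 others made up 0.00196% of any library or less. ERCC counts were 0.292% to 0.496% of a library in mESCs and 0 in EBs.

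Counts were tested with edgeR 4.0.16 (R 4.3.3): TMM, filterByExpr, quasi-likelihood F test and Benjamini-Hochberg adjustment over all genes tested, each comparison on the libraries of its own groups. A standard error is the log2 fold change divided by the root of the F statistic. CPM and RPKM use TMM over all 15 libraries and the union of M21 exons. The ratios of genes with 1 to 3 reads in a group have exact 95% intervals, and floors are 3 counts over a group. Both cover counting error only. Alternatives were a replicate block, an offset for exon length (lowess span 0.3), both together, DESeq2 size factors, DESeq2 1.42.0, no count filter, all libraries in one fit, ERCC scaling among mESCs, leaving out each library, and leaving out the 5 that stand apart. On simulated EB counts for 15039 genes, 83% of 2-fold and 100% of 4-fold changes were recovered, and 19 unchanged genes were called. The changes were placed only in genes with a mean above 1 CPM, and no simulated library stood apart. These shares therefore do not describe genes with fewer reads or the libraries that stand apart. The pairs of libraries within groups differed by more than sampling noise.

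The replicate numbers were checked for pairing by the correlation of deviations from group means. Same-numbered libraries correlated at 0.584, 0.289 and 0.285 between the mESC lines and at 0.228, 0.268 and 0.373 between the EB groups. In both of these comparisons the libraries that stand apart carry the same number, 1 in the mESC lines and 3 in the EB groups. Pairing and this shared number cannot be told apart by such correlations. Blocked values of members are given above where they change a call between the lines, with dTAG-13 in EBs or for the difference of effects. On EB formation the block in edgeR lost the calls of Zrsr1 (adjusted p = 0.111), Igf2r (0.0531), Dio3 (0.0628) and Impact (0.0623). The members, lists and domains were chosen with earlier results of these data known. The rule for naming genes gave every member called in a comparison its value in every library and the others a range, and took up to 4 called genes of each list by p-value. Which copy of a gene is usually expressed came from common knowledge, not from the files. Tables and plots used Python 3.11.15, pandas 2.3.3, numpy 2.4.6, scipy 1.17.1 and matplotlib 3.10.9.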

Additional observations from a re-analysis of the deposited data

Results flagged for a closer look

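The effect of dTAG-13 on Plagl1 differed between NSD1-dTAG EBs and wild-type mESCs by -1.22 on the log2 scale (edgeR, adjusted p = 0.00711), and it was picked out because a test of that difference passed. All 3 dTAG-13 EB libraries were below all 3 nontreated EB libraries, while all 3 wild-type dTAG-13 libraries were above all 3 wild-type nontreated ones. Groups of 3 libraries were too small to test single libraries as outliers.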

How the results depend on the processing

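The alternatives kept the direction of each called gene in the EB comparisons. Between the lines Commd1, not called at first, was called in the other direction without the libraries that stand apart (-0.25 on the log2 scale). With the replicate block the calls among these genes were 0 with dTAG-13 in wild-type mESCs, 6 between the lines, 19 on EB formation, 8 with dTAG-13 in EBs and 2 for the difference of effects. Same-numbered libraries did not deviate together as a set in wild-type mESCs (-0.288, 0.233 and -0.252) or on EB formation (-0.201, 0.127 and -0.268). In these comparisons the libraries that stand apart carry different numbers. The block gave 785 (5.65%) of all genes between the lines, 1834 (12%) between the EB groups and 475 (3.00%) for the difference of effects. Between the lines, the members called were 4 with the length offset, 9 with the block and length offset, 3 each with DESeq2, without a filter and with all libraries in one fit, 13 without the libraries that stand apart, 0 with ERCC scaling, and 0 to 8 on leaving out 1 library. All genes called there, in that order, were 650 (4.68%), 1393 (10.0%), 528 (2.00%, DESeq2), 367 (1.39%, no filter), 500 (3.12%, one fit), 3123 (22.7%), 1 (0.0072%) and 1 to 1248 (0.00711% to 8.89%). Members tested there were 36 with DESeq2 and without a filter, 33 in one fit and 29 otherwise. For dTAG-13 in EBs the members called were 6 with the length offset and 7 with block and length offset. They were 9 with DESeq2, 8 without a filter, 9 in one fit and 18 without the libraries that stand apart. On leaving out 1 they were 0 to 8. All genes called there were 1270 (8.34%) with the length offset and 1825 (11.98%) with block and length offset. They were 1626 (5.69%) with DESeq2, 1525 (5.34%) without a filter and 1931 (12.05%) in one fit. Without the libraries that stand apart they were 3233 (20.9%), and on leaving out 1 they were 182 to 1293 (1.17% to 8.27%). Members tested there were 39 with DESeq2 and without a filter and 33 otherwise. For the difference of effects the members called were 2 with the length offset, 5 with block and length offset, 4 with DESeq2, 6 without a filter, 11 without the libraries that stand apart and 1 to 6 on leaving out 1. All genes called there were 611 (3.85%) with the length offset, 727 (4.59%) with block and length offset, 781 (2.55%) with DESeq2 and 915 (2.99%) without a filter. They were 1897 (11.9%) without the libraries that stand apart and 202 to 763 (1.24% to 4.70%) on leaving out 1. Members tested were again 39 with DESeq2 and without a filter and 33 otherwise. In wild-type mESCs the 16 genes called without the libraries that stand apart were the 1 departure from 0. On EB formation 19 to 25 members were called, beside 35.2% to 73.2% of all genes. The 19 of 33 with the block (57.6%) stand beside 52.6% of all genes. The cause of these shifts was not tested. Depth limits the 7 untested genes and those with few reads, such as Zim1, Dio3 and Nap1l5.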
